A study of Mus musculus with 8 samples.

Results

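Cholesterol synthesis and the processing of its transcription factor were followed step by step in mouse liver. The set held 31 named genes, of which 28 had a probe set with a single gene symbol on the arrays, out of 22180 genes with such a probe set in all. The list was chosen with earlier results of these data known. Members were matched to probe sets by symbol alone, and where a gene had several probe sets the brightest over the 8 arrays was kept. Acat2, Idi1 and Pdss1 had no such probe set and carry no value here. The knock-in group was 4 liver arrays from male C57BL/6J mice carrying the E167K change in Tm6sf2 (knock-in), and they were set against 4 arrays from male wild type littermates of the same strain. The change lies in the endogenous gene, and whether 1 or both copies carry it was not given in the sources used here. The labels disagree on diet. One text names 14 weeks on either chow or a sucrose-rich feed lacking fat. The other names 20 weeks of high-fat feeding, and no array is tied to either. Age and hour of collection were not given in the sources used here. Nothing in the labels ties each array to an animal of its own, and the p-values speak only of array-to-array spread, which may be technical.

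Cholesterol is built in the endoplasmic reticulum from acetyl-CoA through mevalonate, farnesyl diphosphate, squalene and lanosterol, and the liver makes much of it for lipoproteins and bile. The enzymes are transcribed under SREBP-2, the product of Srebf2. When membrane sterol falls, Scap escorts SREBP-2 to the Golgi, where a pair of proteases frees its active fragment, and when sterol is plentiful the Insig proteins hold Scap and SREBP-2 in the endoplasmic reticulum. Tm6sf2, the edited gene, encodes a membrane protein of the same organelle that takes part in loading lipid into very low density lipoprotein, and its EXPERA domain is shared with the sterol isomerase Ebp and with Tmem97.

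In none of the 28 genes did knock-in livers differ from wild type past the threshold. By limma, 0 of 28 had an adjusted p under 0.05, against 0.0669% of the 13451 genes tested (0.0223% higher and 0.0446% lower in the knock-in), and the smallest adjusted p in the set was 0.38. At an unadjusted p under 0.05 there were 2 of 28, both lower in the knock-in, against 11.3% of all genes in either direction, 6.01% higher and 5.29% lower. These were Hmgcs1 and Hsd17b7. The 4 knock-in arrays lay wholly apart from the 4 wild type arrays in 0 of 28 genes, against 7.16% of all genes (3.96% with the knock-in higher and 3.2% with it lower). On the log2 scale 19 members were above and 9 below 0, with a median change of 0.0545, while 51.1% of all genes lay above 0 with a median of 0.0046. Changes of the members ran from -0.45 for Cyp51 to 0.46 for Fdps. Knock-in replicate 2 held the highest value of the 8 arrays in 12 of 28 genes (42.9%, against 14.7% of all genes). Wild type replicate 3 held it in 7 (25.0%, against 14.9%). Both arrays were picked from these same values. Over all genes, too, they held the highest value more often than any other array, and wild type replicate 3 most often the lowest (16.8%).

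The arrays were alike in distribution, with medians of 3.73 to 3.8 on the log2 scale and correlations between arrays of 0.973 to 0.98 over all 41345 probe sets. The liver label was checked against 7 hepatocyte markers, among them Alb and Apoa1, which lay between 12.09 and 13.66 on every array. Tm6sf2 was at 9.27, 9.69, 9.90 and 9.76 in knock-in livers, against 9.85, 9.43, 9.92 and 9.68 in wild type livers, a change of -0.063 (SE 0.16, limma adjusted p = 0.928). Its sign turned when wild type replicate 3 (0.0037) or knock-in replicate 1 (0.064) was left out. The edit is a coding one, so this level does not check the genotype labels. All 28 members lay above the dim limit on all 8 arrays, a limit set at the 40th percentile of each array (3.46 to 3.5).

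Promoters are shown for 6 members, picked after values were seen, none of which passed the threshold. They are Hmgcs1 and Hsd17b7, which had the smallest p, and Cyp51, with the lowest change. The others are Insig1, the sterol brake with the smallest p among the genes of SREBP processing, Nsdhl, which swung widely between arrays, and Sc5d, the steadiest. Each window is the 250 bases before the RefSeq start in GRCm38.p6, written 5′ to 3′ on the strand of the gene. Capitals mark CCAAT (or ATTGG, its reverse complement) and TCACNCCAC on either strand. CCAAT is the letter core bound by NF-Y, a partner of SREBP at sterol genes, and TCACNCCAC is a common core of the sterol regulatory element. Hmgcs1 lies at chr13:119690101-119690350 on the plus strand, Hsd17b7 at chr1:169969206-169969455 on the minus strand, Cyp51 at chr5:4104698-4104947 on the minus strand, Insig1 at chr5:28071162-28071411 on the plus strand, Nsdhl at chrX:72918271-72918520 on the plus strand and Sc5d at chr9:42264301-42264550 on the minus strand.
Hmgcs1: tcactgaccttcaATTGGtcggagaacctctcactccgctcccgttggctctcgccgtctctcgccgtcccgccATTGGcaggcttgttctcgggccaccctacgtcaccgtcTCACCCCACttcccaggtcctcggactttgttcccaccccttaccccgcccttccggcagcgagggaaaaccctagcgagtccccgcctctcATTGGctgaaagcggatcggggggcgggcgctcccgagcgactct
Hsd17b7: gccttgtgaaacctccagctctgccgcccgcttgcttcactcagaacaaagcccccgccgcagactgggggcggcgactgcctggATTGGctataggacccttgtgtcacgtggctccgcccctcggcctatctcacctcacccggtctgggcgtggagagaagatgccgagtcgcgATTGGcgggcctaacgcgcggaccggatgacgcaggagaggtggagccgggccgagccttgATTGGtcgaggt
Cyp51: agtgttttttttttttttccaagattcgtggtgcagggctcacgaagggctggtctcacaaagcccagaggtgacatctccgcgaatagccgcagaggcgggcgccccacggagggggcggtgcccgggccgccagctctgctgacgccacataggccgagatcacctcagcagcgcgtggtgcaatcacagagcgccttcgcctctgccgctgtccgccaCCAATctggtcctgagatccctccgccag
Insig1: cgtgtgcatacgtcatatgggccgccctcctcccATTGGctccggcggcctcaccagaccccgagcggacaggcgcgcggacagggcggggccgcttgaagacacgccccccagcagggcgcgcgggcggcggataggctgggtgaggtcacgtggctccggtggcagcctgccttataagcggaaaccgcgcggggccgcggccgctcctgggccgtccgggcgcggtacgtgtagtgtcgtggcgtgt
Nsdhl: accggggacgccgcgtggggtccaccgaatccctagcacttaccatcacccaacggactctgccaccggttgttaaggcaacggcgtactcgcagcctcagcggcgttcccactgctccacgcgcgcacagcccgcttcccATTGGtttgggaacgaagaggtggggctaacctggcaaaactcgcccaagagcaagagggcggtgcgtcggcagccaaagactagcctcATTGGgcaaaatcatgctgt
Sc5d: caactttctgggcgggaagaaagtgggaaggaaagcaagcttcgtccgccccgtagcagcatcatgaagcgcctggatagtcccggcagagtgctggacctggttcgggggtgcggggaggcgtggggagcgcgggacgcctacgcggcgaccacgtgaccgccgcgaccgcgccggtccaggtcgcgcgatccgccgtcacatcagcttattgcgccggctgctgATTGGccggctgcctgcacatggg

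Among the 27 named genes with a promoter window, 20 held CCAAT on either strand, or 74.1%, against 37.5% of 27025 genes with windows of this length and 39.5% of the 10547 of them that were tested on the arrays. TCACNCCAC was held by 1 of 27, Hmgcs1, at -137 to -129 counted back from the start, against 1.2% of all genes with a window. The 7 members whose windows lacked CCAAT were Acat2, Pdss1, Scap, Mbtps1, Mbtps2, Lrp1 and Lpcat1. All 9 enzymes after lanosterol had it, and so did both Insig genes and Srebf2. Fdps, Fdft1, Sqle and Stard4 were not analysed here for motifs. In the printed windows the marked motifs did not overlap each other. Hmgcs1 and Hsd17b7 had CCAAT at 3 places each, Nsdhl at 2, and Cyp51, Insig1 and Sc5d at 1. Places were counted in the printed windows only, and a link between motifs and changes was not tested. A gene counted if any of its windows held the motif, and a match in the letters is not a measured binding site.

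The mevalonate arm showed opposed values within a few steps. Hmgcs1, the cytosolic synthase that joins acetyl-CoA to acetoacetyl-CoA and so opens the mevalonate route, was at 9.75, 9.61, 9.38 and 9.37 in knock-in livers, against 9.88, 9.80, 9.91 and 9.66 in wild type livers (probe set 17290173, log2). In 3 of 4 knock-in arrays it lay below every wild type array, while knock-in replicate 1 lay within the wild type range. The knock-in minus wild type change was -0.28 (95% interval -0.54 to -0.029, SE 0.11, adjusted p = 0.38 by limma), a fold of 0.821, with an unadjusted p of 0.0328 and an exact two-sided permutation p of 0.0571. The smallest p that 4 against 4 arrays allow in that test is 0.0286. In liver tissue, fewer cells that express a gene and less of its RNA per cell cannot be told apart.

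Mvk, mevalonate kinase, lay close together in wild type livers and wider in the knock-in, at 5.71, 5.16, 5.15 and 5.51 in knock-in livers, against 5.42, 5.54, 5.57 and 5.43 in wild type livers. Pmvk, which adds the next phosphate, was at 7.14, 8.09, 7.57 and 7.26 in knock-in livers, against 7.13, 7.05, 7.74 and 7.11 in wild type livers. In each genotype a single array stood above the others for Pmvk, knock-in replicate 2 and wild type replicate 3. Mvd, the decarboxylase that yields isopentenyl diphosphate, was dimmer, at 4.61, 5.27, 4.47 and 4.97 in knock-in livers, against 4.76, 4.23, 4.67 and 4.54 in wild type livers. Its change of 0.28 (SE 0.19, limma adjusted p = 0.626) was 0.13 without knock-in replicate 2. For Mvk the change was -0.11 (95% interval -0.41 to 0.20), and it ran from -0.21 without knock-in replicate 1 to -0.028 without knock-in replicate 3. For Pmvk it was 0.25 (-0.26 to 0.77), or 0.064 without knock-in replicate 2.

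Fdps, which builds farnesyl diphosphate for both sterols and prenyl groups, was at 7.62, 8.49, 7.26 and 6.87 in knock-in livers, against 6.58, 6.80, 7.89 and 7.14 in wild type livers. Its change of 0.46 (95% interval -0.39 to 1.30, SE 0.37, adjusted p = 0.703 by limma) was the highest in the set, but values within a genotype spanned more than that. Without knock-in replicate 2 it was 0.15, and without wild type replicate 3 it was 0.72. Ggps1, which lengthens farnesyl diphosphate for protein prenylation and leaves the sterol route, ranged from 7.57 to 7.70 in knock-in and 7.60 to 7.91 in wild type livers, a change of -0.11 (SE 0.092, limma adjusted p = 0.7).

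**Figure D1:**
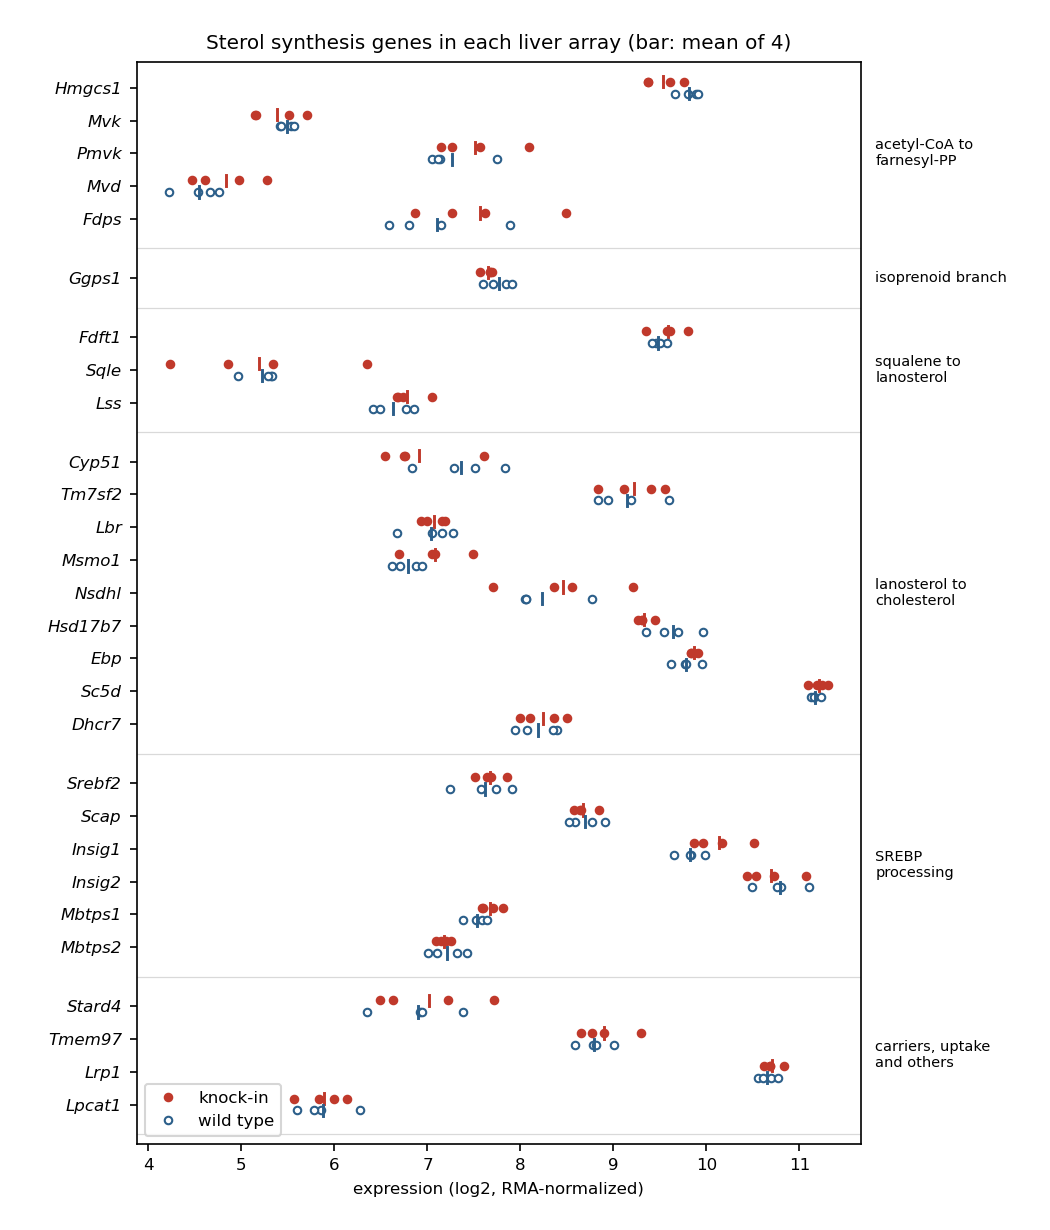
Expression of the 28 genes on each array, in pathway order down the page, with log2 expression across. Filled circles are the 4 knock-in arrays, open circles the 4 wild type arrays, and short bars group means. The 2 genotypes overlap in every row, and Sqle, Fdps and Nsdhl spread over more than 1.5 log2 units.

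Of the 3 genes from farnesyl diphosphate to lanosterol, 2 were above and 1 below 0, and 0 had an unadjusted p under 0.05. Fdft1, squalene synthase, the committed step to sterols, was at 9.58, 9.81, 9.61 and 9.35 in knock-in livers, against 9.45, 9.41, 9.57 and 9.50 in wild type livers. The change was 0.10 (SE 0.11, limma adjusted p = 0.78), with 3 knock-in arrays above and 1 below the whole wild type range. It was 0.027 without knock-in replicate 2 and 0.18 without knock-in replicate 4. Sqle, the squalene epoxidase that is a second control point of the route, was the widest gene of the set in the knock-in, at 5.34, 6.35, 4.86 and 4.23 in knock-in livers, against 5.32, 4.97, 5.32 and 5.29 in wild type livers. Knock-in arrays lay on both sides of the wild type range, 2 above and 2 below it. The Sqle change was -0.031 (95% interval -0.89 to 0.82, SE 0.38, adjusted p = 0.986 by limma), and it ran from -0.42 without knock-in replicate 2 to 0.29 without knock-in replicate 4. Lss, which closes squalene epoxide into lanosterol, was at 6.67, 7.05, 6.74 and 6.68 in knock-in livers, against 6.42, 6.49, 6.77 and 6.86 in wild type livers, a change of 0.15 (SE 0.13, limma adjusted p = 0.729), or 0.062 without knock-in replicate 2.

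After lanosterol, 7 of 9 enzymes were above and 2 below 0, and 1, Hsd17b7, had an unadjusted p under 0.05. Cyp51, the cytochrome P450 that takes the first methyl group off lanosterol, was at 6.76, 7.61, 6.54 and 6.75 in knock-in livers, against 6.83, 7.28, 7.84 and 7.51 in wild type livers. In 3 of 4 knock-in arrays it was below all wild type arrays, and the exception was knock-in replicate 2. Its change was -0.45 (95% interval -1.06 to 0.15, SE 0.27, adjusted p = 0.575 by limma), and leaving out single arrays it ran from -0.68 without knock-in replicate 2 (unadjusted p = 0.014, adjusted p = 0.435) to -0.30 without wild type replicate 3 (unadjusted p = 0.307). Tm7sf2 and Lbr are alternative reductases for the product of Cyp51, Lbr being also a nuclear envelope protein. Tm7sf2 ranged from 8.83 to 9.55 in knock-in and 8.83 to 9.60 in wild type livers with a change of 0.083, and Lbr from 6.93 to 7.19 in knock-in and 6.68 to 7.27 in wild type livers with a change of 0.03.

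The next enzymes remove a pair of methyl groups in turn. Msmo1, the oxidase of this complex, was at 7.08, 7.49, 7.05 and 6.69 in knock-in livers, against 6.87, 6.94, 6.62 and 6.70 in wild type livers. In 3 knock-in arrays it lay above every wild type array, and its change was 0.29 (95% interval -0.075 to 0.66, SE 0.16, adjusted p = 0.541 by limma). It was 0.15 without knock-in replicate 2, 0.10 with wild type replicate 3 left out as well, and 0.42 without knock-in replicate 4. Nsdhl, the decarboxylating dehydrogenase, was at 8.55, 9.21, 8.37 and 7.70 in knock-in livers, against 8.06, 8.04, 8.77 and 8.06 in wild type livers. Its change of 0.22 (95% interval -0.46 to 0.91, SE 0.30, adjusted p = 0.844 by limma) turned to -0.027 without knock-in replicate 2. Hsd17b7, the reductase that ends each round, was at 9.31, 9.45, 9.26 and 9.30 in knock-in livers, against 9.35, 9.55, 9.96 and 9.70 in wild type livers (probe set 17229466). Knock-in values lay close together and 3 of 4 were below all wild type values, with knock-in replicate 2 between the lowest wild type arrays. For Hsd17b7 the change was -0.31 (95% interval -0.61 to -0.015, SE 0.13, adjusted p = 0.407 by limma), a fold of 0.806, with an unadjusted p of 0.0416 and an exact permutation p of 0.0571. These enzymes of a single complex had changes of either sign, and differences between these changes were not tested.

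Of the last steps, Ebp and Sc5d varied little in log2 units (within-genotype SD 0.098 and 0.072), though Ebp was ordinary for its expression level. Ebp, the sterol isomerase with the EXPERA fold of Tm6sf2, was at 9.83, 9.87, 9.91 and 9.84 in knock-in livers, against 9.77, 9.62, 9.95 and 9.78 in wild type livers. All its knock-in values lay inside the wild type range, a change of 0.081 (SE 0.089, limma adjusted p = 0.791). Sc5d, the desaturase after Ebp, ranged from 11.09 to 11.31 in knock-in and 11.12 to 11.23 in wild type livers, and its change of 0.047 had the narrowest interval of the set, -0.13 to 0.23. Dhcr7, which makes cholesterol from its direct precursor, ranged from 8.0 to 8.50 in knock-in and 7.94 to 8.39 in wild type livers, a change of 0.053 (SE 0.15, limma adjusted p = 0.934). 

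The count of 2 members at an unadjusted p under 0.05 rested on single arrays. Leaving out wild type replicate 3, or knock-in replicate 3, gave 0. It was 1 without wild type replicate 2 (Hsd17b7), wild type replicate 4 (Hmgcs1) or knock-in replicate 4 (Msmo1, higher). Without knock-in replicate 2 it was 3, with Cyp51 added. Without knock-in replicate 1 it was 2, Hmgcs1 and the higher Insig1, and without wild type replicate 1 it was 2, Cyp51 and Hsd17b7. With both knock-in replicate 2 and wild type replicate 3 left out, an alternative added after the data were seen, it was 1, Cyp51 at -0.53 (unadjusted p = 0.0245, limma adjusted p = 0.557). Over the single-array fits the change of Hmgcs1 ran from -0.36 to -0.23 and that of Hsd17b7 from -0.41 to -0.20.

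**Figure D2:**
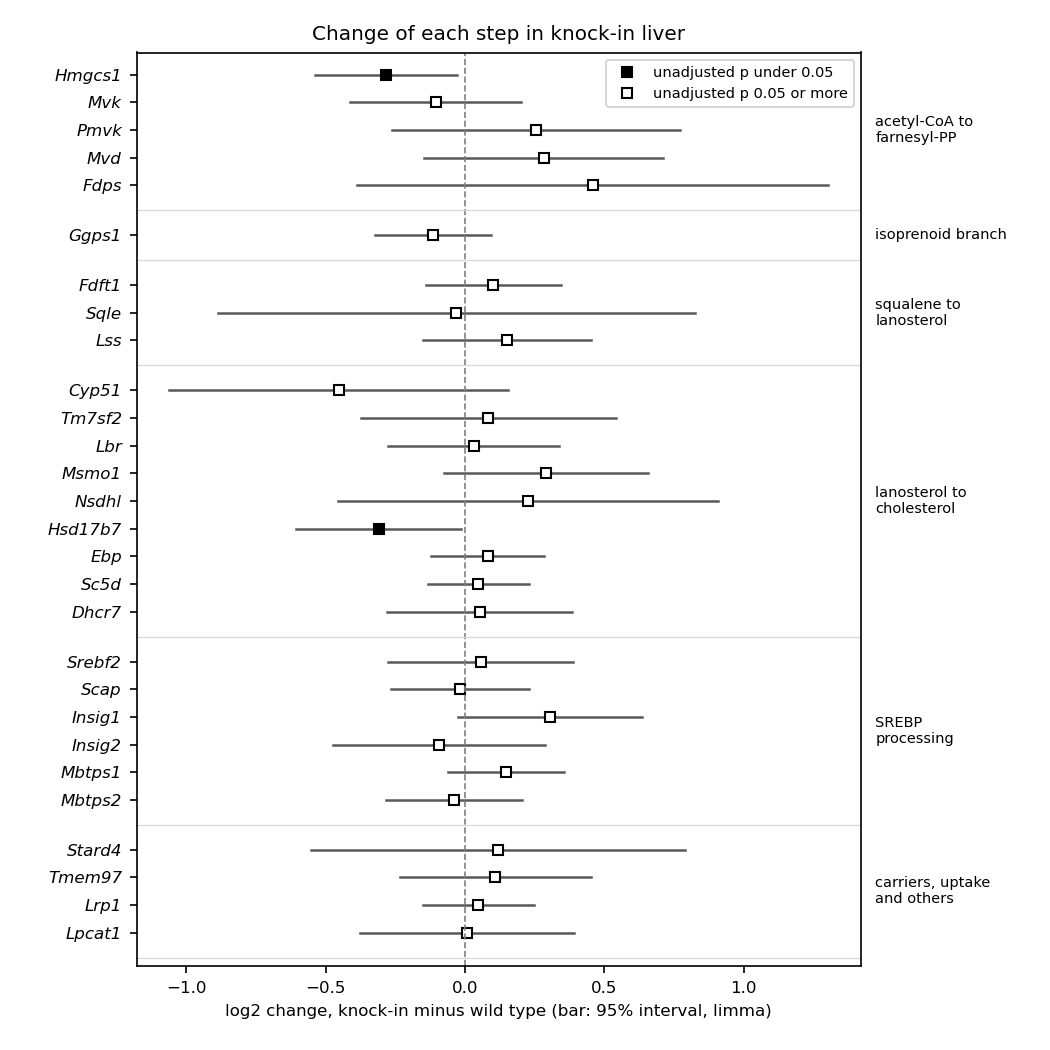
Change of each gene, knock-in minus wild type on the log2 scale, with its 95% interval from limma as a horizontal bar, in pathway order. Filled squares mark an unadjusted p under 0.05, which only Hmgcs1 and Hsd17b7 reached, and open squares the rest. Intervals are narrowest for Sc5d and widest for Sqle and Fdps.

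Of the 6 genes that sense sterol and process SREBP, 3 were above and 3 below 0, and 0 had an unadjusted p under 0.05. Srebf2 itself, which SREBP-2 also drives, was at 7.68, 7.85, 7.64 and 7.51 in knock-in livers, against 7.58, 7.24, 7.91 and 7.73 in wild type livers, and all knock-in values lay within the wild type range. Its change was 0.056 (SE 0.15, limma adjusted p = 0.931), turning to -0.069 without wild type replicate 2. Scap, the escort, was at 8.64, 8.58, 8.65 and 8.84 in knock-in livers, against 8.59, 8.53, 8.91 and 8.77 in wild type livers, a change of -0.019 (SE 0.11, limma adjusted p = 0.973). Its second probe set was dim, at 2.87 to 3.55 over the 8 arrays, and the mean of both probe sets gave 0.15.

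Insig1 and Insig2 encode the proteins that retain Scap. Insig1, whose own transcription follows SREBP activity, was at 9.87, 10.51, 10.17 and 9.97 in knock-in livers, against 9.65, 9.84, 9.83 and 9.99 in wild type livers. In 2 knock-in arrays it exceeded every wild type array, and the 2 others lay within the wild type range. Its change was 0.30 (95% interval -0.025 to 0.63, SE 0.15, adjusted p = 0.47 by limma), a fold of 1.23, with an unadjusted p of 0.0662, and it was 0.18 without knock-in replicate 2. Insig2, which in liver is under insulin rather than SREBP control, was at 10.73, 10.54, 10.43 and 11.07 in knock-in livers, against 11.10, 10.80, 10.76 and 10.49 in wild type livers, and its change was -0.095 (SE 0.17, limma adjusted p = 0.891). Of the Golgi proteases, Mbtps1, which makes the first cut, was at 7.81, 7.59, 7.60 and 7.71 in knock-in livers, against 7.39, 7.52, 7.59 and 7.64 in wild type livers. The change was 0.15 (95% interval -0.062 to 0.36, SE 0.092, adjusted p = 0.603 by limma), with 2 knock-in arrays above all wild type arrays. Mbtps2, which makes the second cut, ranged from 7.10 to 7.25 in knock-in and 7.0 to 7.42 in wild type livers, with a change of -0.039.

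Of the carriers and uptake genes, Stard4, a soluble protein that moves cholesterol between membranes, was at 6.49, 7.72, 7.22 and 6.62 in knock-in livers, against 6.35, 6.91, 7.38 and 6.94 in wild type livers. It spread widely in both genotypes, and its change of 0.12 (95% interval -0.55 to 0.79, SE 0.30, adjusted p = 0.928 by limma) turned to -0.12 without knock-in replicate 2. Tmem97, the EXPERA protein of endoplasmic reticulum and lysosome, was at 8.90, 9.30, 8.77 and 8.65 in knock-in livers, against 8.78, 8.59, 9.0 and 8.81 in wild type livers. Its change of 0.11 (SE 0.15, limma adjusted p = 0.852) turned to -0.024 without knock-in replicate 2. Lrp1, the endocytic receptor for remnant lipoproteins, ranged from 10.62 to 10.83 in knock-in and 10.55 to 10.77 in wild type livers, a change of 0.047 (-0.15 to 0.25). Lpcat1, which reacylates lysophosphatidylcholine, ranged from 5.57 to 6.14 in knock-in and 5.60 to 6.28 in wild type livers, a change of 0.0063 (-0.38 to 0.39).

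A p that misses the threshold does not show that the genotypes were equal, and the intervals say how much could have been missed. For 18 of 28 members the 95% interval lay within a 1.5-fold change in either direction, as it did for 9928 of the 13451 genes tested. For the other 10, Hsd17b7, Pmvk, Mvd, Fdps, Sqle, Cyp51, Msmo1, Nsdhl, Insig1 and Stard4, a change of 1.5-fold or more in at least 1 direction lay inside the interval. Fdps could have been up to 1.30 higher on the log2 scale and Sqle anywhere from -0.89 to 0.82.

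Arrays of the same genotype differed widely in some members and little in others. Within-genotype SD, pooled over both genotypes, had a median of 0.22 over the members and 0.19 over all genes. Dim genes varied more on these arrays, so each member was also ranked among the genes of its own level class, with all genes cut into 10 classes of equal size by mean expression. In 21 of 28 the SD was above the median of that class, and in 10 it was in the top 10%. Fdps (SD 0.63) ranked at the 99.3 percentile of its class, Nsdhl (SD 0.51) at 98.7, Stard4 (SD 0.50) at 98.4, Cyp51 (SD 0.45) at 97.5 and Sqle (SD 0.64) at 97.2. Pmvk, Tm7sf2, Insig2, Tmem97 and Insig1 were the remaining 5. At the other end Sc5d ranked at 19.1, Ggps1 at 21 and Mbtps1 at 21.9, while Ebp was at 43.7. The knock-in had the larger SD in 16 of 28 members, or 57.1%, against 46.5% of all genes.

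**Figure D3:**
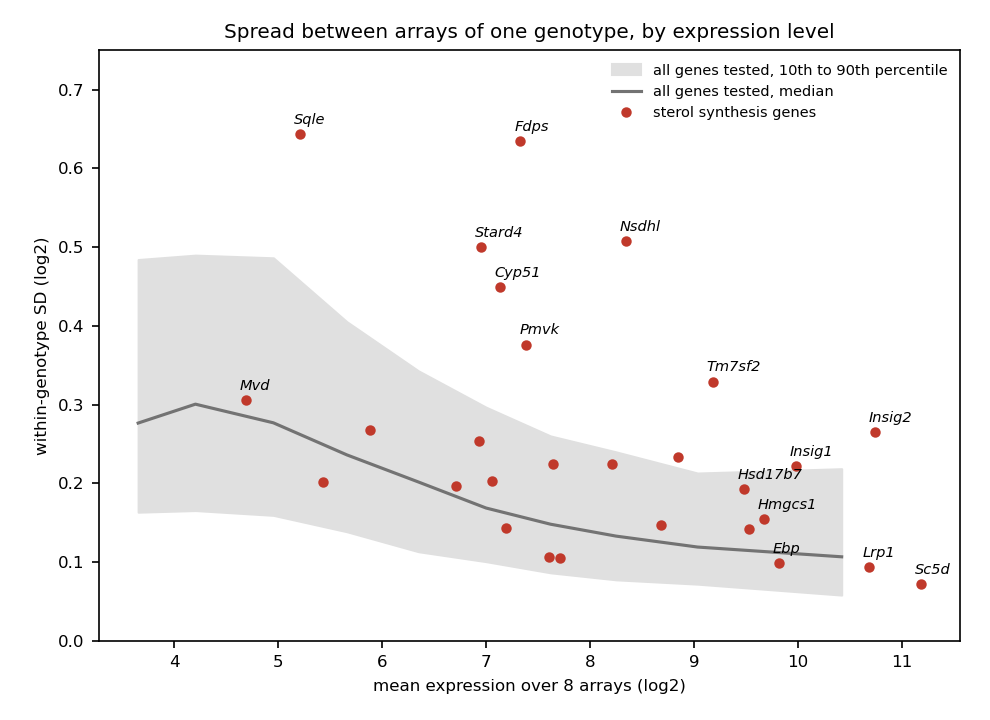
Within-genotype SD of log2 expression (vertical) against mean log2 expression over 8 arrays (horizontal). Points are the 28 genes, the grey line the median and the grey band the 10th to 90th percentile of all 13451 genes in 10 classes of expression level. Genes above the band include Fdps, Nsdhl, Stard4, Cyp51, Sqle, Pmvk and Tm7sf2, and Sc5d lies low. By level class, 10 genes rank in the top 10%.

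Knock-in replicate 2 and wild type replicate 3 were high across many steps, but not among the genes of SREBP processing as a group or in Ggps1. Knock-in replicate 2 was the highest of the knock-in arrays in 16 of 28 members, against 26.3% of all genes, and wild type replicate 3 was the highest of the wild type arrays in 16 of 28, against 26.4%. Measured from each gene's mean over the 8 arrays, the median member stood at -0.0026, 0.18, -0.021 and -0.13 in knock-in replicates 1 to 4 and at -0.063, -0.11, 0.12 and -0.024 in wild type replicates 1 to 4. Over all genes that median stayed between -0.0074 and 0.0090. Among the 6 genes of SREBP processing it was -0.0026 in knock-in replicate 2 and -0.0015 in wild type replicate 3. Ggps1, alone in its branch, stood at -0.036 and -0.11 in those arrays. Knock-in replicate 2 exceeded every wild type array in 12 members, among them Fdps, Sqle, Nsdhl, Stard4 and Pmvk. Hmgcs1 was not among them and had its highest knock-in value in replicate 1. Knock-in replicate 2 and wild type replicate 3 both lay above the gene mean in 13 members. For these counts of 12 and 13 members the share over all genes was not computed, so no excess can be read from them.

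**Figure D4:**
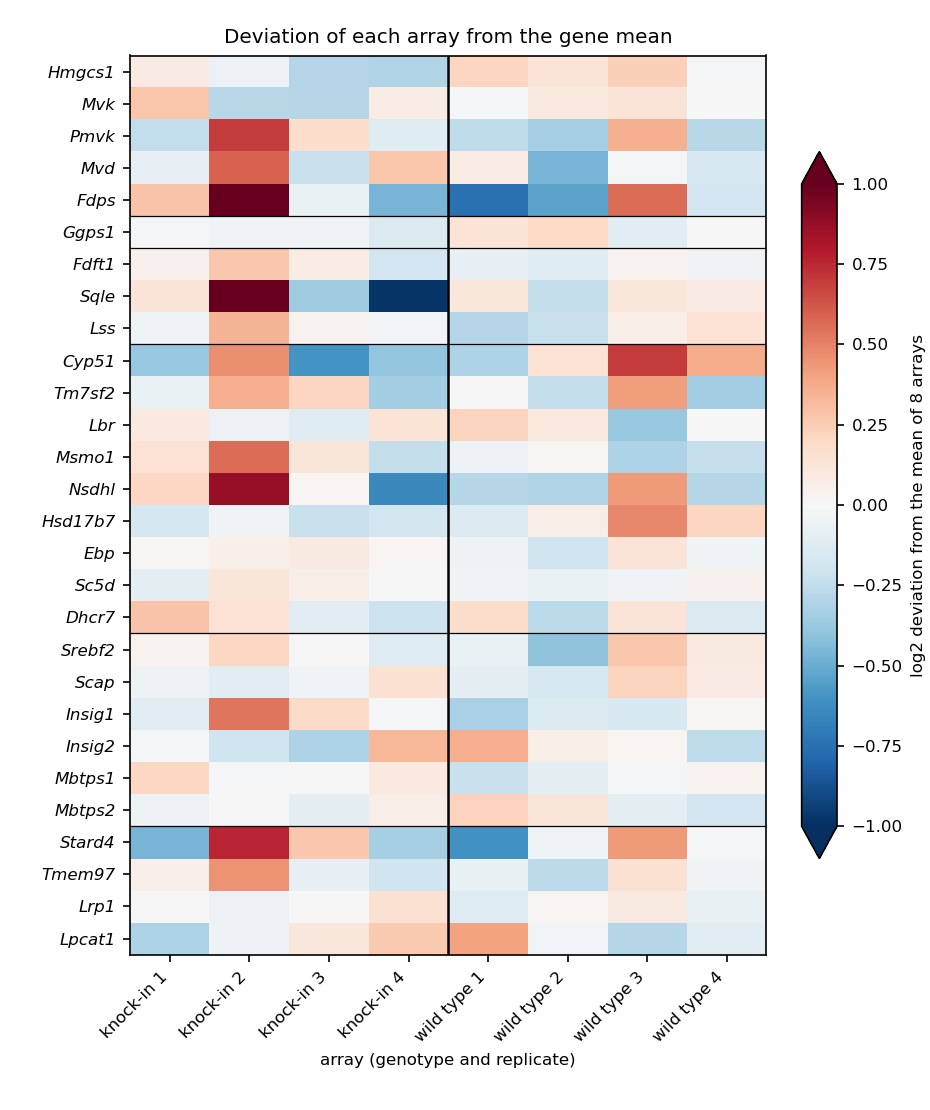
Deviation of each array (columns, knock-in left of the line, wild type right) from the mean of 8 arrays for each gene (rows, lines between steps), in log2 units, with red above and blue below and colours capped at 1. The columns of knock-in replicate 2 and wild type replicate 3 are red in many rows, with medians of 0.18 and 0.12.

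Of 5 genes listed around acetyl-CoA supply, most were high in knock-in replicate 2. Acss2, the cytosolic acetyl-CoA synthetase and an SREBP target, was at 8.88, 9.34, 8.91 and 8.86 in knock-in livers, against 8.81, 8.76, 9.19 and 8.53 in wild type livers. Slc25a1, the citrate carrier, named after its values were seen, was at 10.54, 10.75, 10.49 and 10.43 in knock-in livers, against 10.46, 10.31, 10.71 and 10.47 in wild type livers. Acly, which splits citrate to acetyl-CoA, was at 8.74, 9.0, 8.64 and 8.78 in knock-in livers, against 8.63, 8.62, 8.78 and 8.48 in wild type livers. Knock-in replicate 2 was the highest of all 8 arrays in 4 of the 5 genes of this list, against 14.7% of all genes. Wild type replicate 3 was the highest in the other, Me1. Further lists around the pathway did not share this. Knock-in replicate 2 was highest in 0 of 10 genes of sterol-dependent degradation and SREBP turnover and 1 of 6 electron donors and accessory proteins. It was highest in 3 of 14 users of isoprenoids and 2 of 10 genes of sterol esterification and movement. Acat1, the mitochondrial acetoacetyl-CoA thiolase, likewise named after its values were seen, was at 12.21, 12.33, 12.08 and 12.21 in knock-in livers, against 12.25, 12.17, 12.04 and 12.17 in wild type livers, and wild type replicate 3 was its lowest array. Changes by genotype were 0.16 for Acly, 0.18 for Acss2 and 0.066 for Slc25a1, 0 of 5 had an unadjusted p under 0.05, and the list median was 0.066. Without knock-in replicate 2 the change was 0.088 for Acly and 0.063 for Acss2, and without wild type replicate 3 that of Acss2 was 0.30.

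Levels of other cell types were read on the same arrays. Kupffer cell markers (6 genes) had mean log2 levels of 7.94 to 8.66 in knock-in and 8.03 to 8.95 in wild type arrays, with knock-in replicate 2 and wild type replicate 3 at 8.37 each, inside those ranges. Hepatocyte markers (7 genes) averaged 13.03 to 13.06 in knock-in, where replicate 2 was the highest, and at most 13.03 in wild type arrays, where replicate 3 was the lowest. Stellate cell markers (6 genes) averaged 7.36 to 7.99 in knock-in and 7.15 to 7.97 in wild type arrays, where replicate 3 was the lowest. Cholangiocyte markers (4 of 5 with a probe set) averaged 4.56 to 5.05 in knock-in and 4.54 to 4.9 in wild type arrays, and the dimmest of them lay near the dim limit, at 3.4 to 4.11. T and B cell markers (4 of 5) averaged 4.76 to 5.21 in knock-in, lowest in replicate 2, and 4.88 to 5.36 in wild type arrays, highest in replicate 3. Sinusoidal endothelial markers (5 genes) averaged 9.67 to 9.83 in knock-in, highest in replicate 2, and 9.53 to 9.7 in wild type arrays, lowest in replicate 3. By limma 0 markers in these 6 lists passed the threshold, and Lyve1, an endothelial marker, was the only one with an unadjusted p under 0.05, its list giving 1 higher and 0 lower. The part of cell makeup in the spread of the sterol genes was not tested.

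Around the pathway, 5 further lists held 52 genes, of which 45 were tested. By limma 0 passed the threshold, 3 were higher and 2 lower at an unadjusted p under 0.05 (6.01% and 5.29% of all genes), and 3 had knock-in arrays wholly above wild type (3.96% of all genes). Their median change was -0.029. When single arrays were left out, Gramd1b kept an unadjusted p under 0.05 each time, while Rnf145, Faf2, Nceh1 and Npc2 each lost it without 3 or more of the arrays in turn. In the list for movement and esterification of sterol (10 tested), Gramd1b, which carries cholesterol from the plasma membrane to the endoplasmic reticulum, was at 5.83, 5.76, 5.94 and 5.88 in knock-in livers, against 4.98, 5.64, 5.07 and 5.58 in wild type livers. All knock-in values were above all wild type values, which fell into a low and a high pair. The change was 0.54 (95% interval 0.18 to 0.90, SE 0.16, adjusted p = 0.266 by limma). The exact permutation p of 0.0286, the smallest possible, follows from the lack of overlap and adds nothing to it.

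Npc2, which hands lysosomal cholesterol to the membrane protein Npc1, was at 8.75, 9.06, 8.83 and 8.81 in knock-in livers, against 8.62, 8.55, 8.64 and 8.67 in wild type livers. The groups did not overlap, and the change was 0.24 (95% interval 0.034 to 0.45, SE 0.091, adjusted p = 0.362 by limma). Nceh1, a hydrolase of cholesterol esters, was at 8.43, 8.61, 8.28 and 8.31 in knock-in livers, against 8.55, 8.62, 8.95 and 8.83 in wild type livers. In 3 of 4 knock-in arrays it lay below all wild type values, with a change of -0.33 (95% interval -0.60 to -0.061, SE 0.12, adjusted p = 0.34 by limma). Nceh1 had 2 probe sets, and their mean gave -0.10 with an unadjusted p of 0.414. The list as a whole had 4 members above and 6 below 0, with a median of -0.024.

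In the list for sterol-dependent protein degradation and SREBP turnover (10 tested), 5 members lay on either side of 0 and the median was -0.011. Rnf145, a ubiquitin ligase that acts on Scap in mouse liver, was at 7.50, 7.59, 7.69 and 7.65 in knock-in livers, against 7.47, 7.34, 7.35 and 7.39 in wild type livers. Its groups did not overlap, and the change was 0.22 (95% interval 0.038 to 0.40, SE 0.081, adjusted p = 0.345 by limma). Faf2, which draws ubiquitinated proteins, Insig1 among them, out of the membrane, was at 9.11, 9.03, 9.20 and 9.08 in knock-in livers, against 9.33, 9.37, 9.19 and 9.34 in wild type livers, with 3 of 4 knock-in values below all wild type values, and its change was -0.20 (95% interval -0.39 to -0.016, SE 0.082, adjusted p = 0.387 by limma).

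The remaining lists had 0 members with an unadjusted p under 0.05. Among users of isoprenoids, 14 tested with a median of -0.035, the smallest p belonged to Coq2, which attaches the side chain of coenzyme Q, at 0.25 (SE 0.12, limma adjusted p = 0.465), and to Rabggta, a subunit of the Rab prenyltransferase, at 0.17 (SE 0.11, limma adjusted p = 0.604). Coq2 ranged from 6.98 to 7.39 in knock-in and 6.82 to 7.15 in wild type livers, and Rabggta from 7.15 to 7.53 in knock-in and 7.05 to 7.34 in wild type livers. Among electron donors and accessory proteins, 6 tested with a median of -0.015, they belonged to Sec14l2, a lipid-binding protein known to stimulate Sqle, at -0.11 (SE 0.084, limma adjusted p = 0.658), and to Cyb5r3, the reductase of cytochrome b5, at 0.13 (SE 0.11, limma adjusted p = 0.703). Sec14l2 ranged from 11.34 to 11.59 in knock-in and 11.56 to 11.64 in wild type livers.

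**Figure D5:**
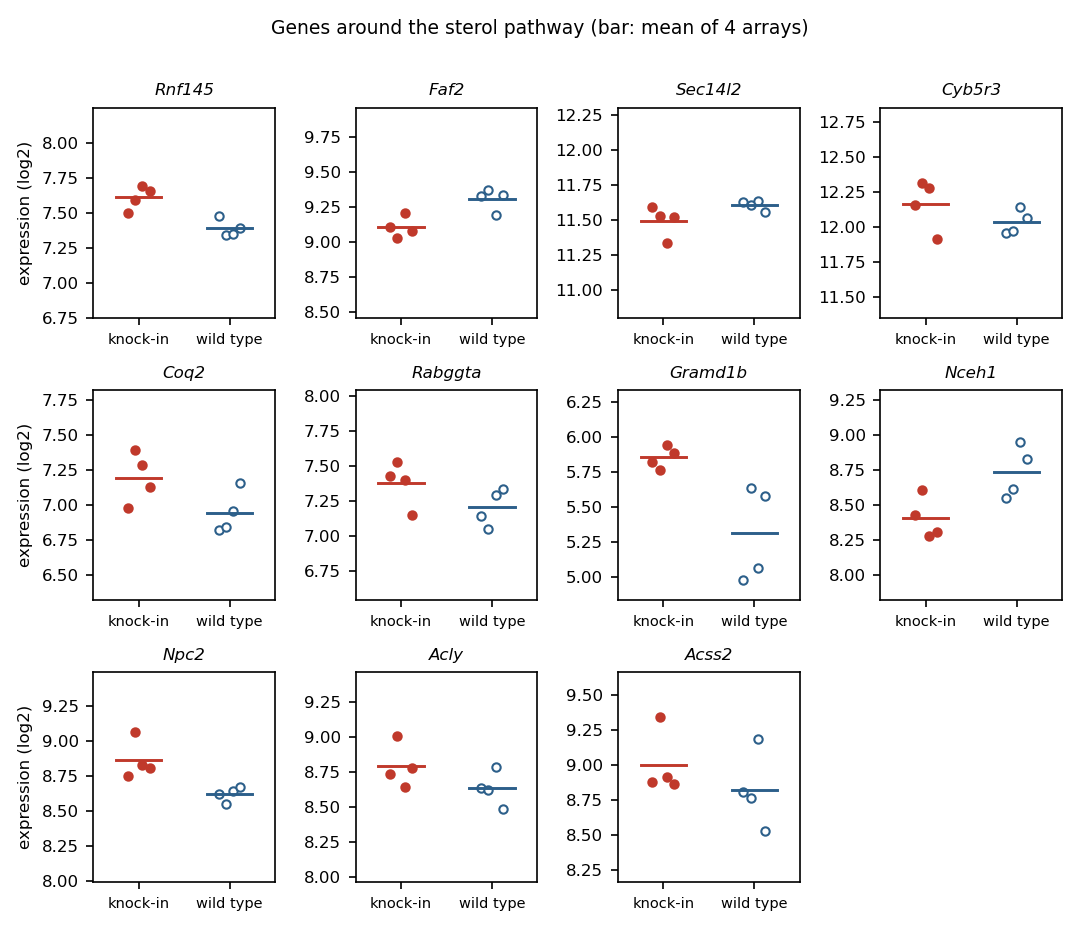
Log2 expression (vertical) of the 11 named genes of the other lists, with the 4 knock-in arrays left and the 4 wild type arrays right in each panel and bars at the group means. The genotypes do not overlap for Rnf145, Gramd1b and Npc2, and Acss2 has a single high array in each genotype.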

How the data were processed

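Total RNA from mouse liver was labelled from 400 ng with biotin and hybridised to whole-transcript arrays, 4 knock-in and 4 wild type, per the labels' protocols. The deposited values are log2 expression from RMA by the authors, per the submitters' processing notes, which also name limma. No versions or annotation build are given in the sources used here. Because RMA makes array distributions much alike, a shift shared by most genes cannot be seen, and differences of dim probe sets can be compressed. Precision is set by the 8 arrays.

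Of 41345 probe sets, 23521 list 1 gene symbol, 1814 several, and 16010 are not listed with a gene. By Entrez identifier 23328 matched the RefSeq table of GRCm38.p6 and 0 symbols changed. Per gene the probe set with the highest mean was kept, and genes above the array's 40th percentile in 4 or more of the 8 arrays were kept, 13451 in all. The genotypes were compared with limma (3.58.1, R 4.3.3; lmFit, eBayes, two-sided, Benjamini-Hochberg over every gene kept), a script first tested on simulated data. A change is the knock-in mean minus the wild type mean of log2 values. Single genes also had an exact permutation test over arrays. Promoter windows are RefSeq's.

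Members and lists were chosen with earlier results of these data known, and the motifs and the promoters shown were chosen after values were seen. All members with a probe set are named, and of each further list the members with an unadjusted p under 0.05, or else the 2 with the smallest p. Alternatives were a further quantile normalization, no and a stricter filter, the mean of probe sets, a trended and robust prior, array weights, a replicate block and leaving out arrays. Not every gene of the pathway is reported here.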

Additional observations from a re-analysis of the deposited data

Results flagged for a closer look

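In 80 groups of 4 arrays (40 named genes in 2 genotypes), 4 had an array far from the other 3 by Dixon's ratio, and chance alone flags about 1 in 20. Pmvk was high in wild type replicate 3, at 7.74 against 7.05 to 7.13 in the other wild type arrays (ratio 0.885). Nsdhl was high in the same array, at 8.77 against 8.04 to 8.06 (ratio 0.981). Acss2 was high in knock-in replicate 2, at 9.34 against 8.86 to 8.91 in the other knock-in arrays (ratio 0.898). Sqle was low in wild type replicate 2, at 4.97 against 5.29 to 5.32 (ratio 0.905).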

How the results depend on the processing

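No member passed the threshold under any of the 16 alternatives, and 0 of the 448 member values had an adjusted p under 0.05. The replicate numbers showed no sign of pairing the arrays: deviations of same-numbered arrays from their group means correlated at 0.102, -0.106, -0.034 and -0.039. Arrays of unlike number correlated at -0.094 to 0.107, and these values cannot exclude a pairing. With the replicate block, 1 member had an unadjusted p under 0.05 (Hmgcs1, adjusted p = 0.483) and 2 genes in all passed, and 0 members did. In the same fit Gramd1b kept an unadjusted p under 0.05 (0.0144), and Nceh1 (0.0573), Npc2 (0.0682), Rnf145 (0.0689) and Faf2 (0.0974) did not. With the trended and robust prior, 3 members had an unadjusted p under 0.05 by limma. They were Hmgcs1, Hsd17b7 and Insig1, the last of them higher in the knock-in (limma unadjusted p = 0.0342, adjusted p = 0.367). Over all genes, 9 passed the threshold, and the number was 2 with no filter, 27 with all 8 arrays above the limit, 24 with probe sets averaged, 73 with the trended and robust prior, 25 with array weights, 1 with knock-in replicate 2 and wild type replicate 3 left out, and 1 to 12 without single arrays. The cause was not tested. Without single arrays, members at an unadjusted p under 0.05 numbered 0 to 3, 0 passed the threshold, and the median change of the members ran from 0.013 to 0.12. With both those arrays left out 1 member had an unadjusted p under 0.05.

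Signs turned in 12 of 28 members, all with intervals across 0. Lbr was at -0.0032 with array weights and -0.066 with both arrays left out. Scap was at 0.15 with the mean of probe sets and 0.085 with both arrays left out. Lpcat1 was at -0.020 after a further quantile normalization, -0.011 with array weights and -0.070 with both arrays left out. Without single arrays the range was -0.42 to 0.29 for Sqle, -0.025 to 0.24 for Tm7sf2, -0.090 to 0.11 for Lbr, -0.027 to 0.48 for Nsdhl, -0.034 to 0.13 for Dhcr7, -0.069 to 0.16 for Srebf2, -0.076 to 0.051 for Scap, -0.22 to 0.010 for Insig2, -0.11 to 0.032 for Mbtps2, -0.12 to 0.29 for Stard4, -0.024 to 0.19 for Tmem97, -0.087 to 0.14 for Lpcat1 and -0.16 to 0.064 for Tm6sf2.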
